A study of Drosophila melanogaster with 8 samples.

Results

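The baseline transcriptome of whole Drosophila melanogaster pupae at stage P6 and normal gravity was described from the 4 control pools of a series of 8 libraries. The members were the 4 samples labelled as 1g control, out of 8 samples in all, and every one of the 13918 listed genes was described in them. Each control sample held 4 whole pupae, pooled before RNA extraction, of Canton-S, a wild-type strain kept at 25 °C. Polyadenylated RNA was made into libraries with a TruSeq mRNA kit and read as 100 bp paired ends, with all samples in 1 lane of a HiSeq-2000. The series asks how pupae respond to development in hypergravity, and the samples of that arm were not used here. The labels state neither the sex of the pupae nor whether the 4 pools came from separate cultures, so the spread between pools may be biological or technical.

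P6 is an early stage of pupal life, after the head has everted. During metamorphosis, pulses of the steroid hormone ecdysone drive the breakdown of larval tissues, while imaginal discs, histoblasts and other progenitor cells build the adult epidermis, muscles, eyes and nervous system. The epidermis of the pupa secretes cuticle under a succession of protein families, and the larval fat body survives as a store. In males the testis already holds developing germ cells. Because whole pupae were pooled, a value sums over all of these tissues, and fewer cells of a type and less RNA per cell cannot be told apart.

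Levels are given in transcripts per 1000000 (TPM), which corrects for transcript length, so that levels can be set beside each other between genes. Every library sums to the same total, so TPM is a share: the depth of each library is unknown, no counting interval can be given, and a gene at 0 is described as listed at 0. Means are given with the SD over 4 pools (n = 4). For the spread between pools, genes averaging at least 1 TPM were used, 11913 in all, on the scale of log2(TPM + 0.5), where a difference of 1 is 2-fold and low genes are drawn together. A gene is called variable where its highest and lowest pool lay at least 4-fold apart. With 1 group there is no test, and a difference between pools describes these libraries.

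The pools were not alike, and replicate 4 stood apart from the other 3. Across genes, Pearson's r of the log2 values was 0.890, 0.935 and 0.926 between replicate 4 and replicates 1, 2 and 3, against 0.957, 0.972 and 0.977 among those 3. These coefficients are across genes, which are not independent replicates. Of the genes, 272 (2.28%) were at least 2-fold above the other 3 pools in replicate 4 and 207 (1.74%) were at least 2-fold below them. In replicate 1 the same counts were 74 (0.621%) above and 107 (0.898%) below. In replicate 2 they were 15 (0.126%) above and 23 (0.193%) below, and in replicate 3 they were 76 (0.638%) above and 13 (0.109%) below. Over all genes, 510 (4.28%) were variable, and 171 of 11851 genes (1.44%) remained so by the same rule over replicates 1, 2 and 3 alone, 167 of them among the 510. Replicate 4 was the highest or the lowest pool for 432 of the 510. TPM itself was shifted a little between pools: the median gene deviated from its mean by 0.02, 0.10, 0.03 and -0.15 on the log2 scale in replicates 1, 2, 3 and 4, and the shares of genes given below as highest or lowest in a pool carry this shift. Replicate 4 was the highest pool for 17.8% of all genes and the lowest for 53.3%, and after median-of-ratios rescaling for 36.6% and 34.4%. Values without replicate 4 are given for some of the levels that rest on it. A mean printed without such a value may rest on that pool too.

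**Figure D1:**
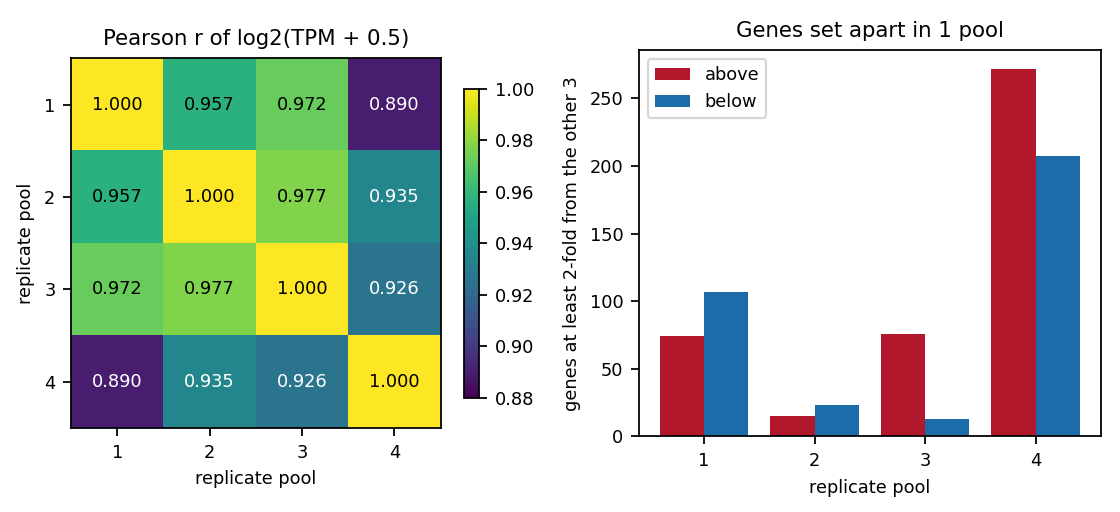
Likeness of the 4 control pools. Left, Pearson's r of log2(TPM + 0.5) for each pair of pools over 11913 genes, from 0.890 between replicates 1 and 4 to 0.977 between replicates 2 and 3. Right, the number of genes at least 2-fold above (red) or below (blue) all 3 other pools, which reached 272 and 207 in replicate 4.

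Most of the listed genes were detected. Of the 13918 genes, 12878 were above 0 in all 4 pools, 787 in some pools, and 253 were listed at 0 in every pool. A level of at least 1 TPM was held in all 4 pools by 11392 genes, a level of at least 100 TPM by 1055 and a level of at least 1000 TPM by 127. The transcriptome was concentrated in few genes. The 10 highest genes of a pool held 11.5% ± 1.19 of its TPM and the 100 highest held 33.4% ± 1.86, while 273 ± 39.0 genes held 50%. Between 4206 and 4665 genes were needed for 90%. Of the 100 genes of highest mean, 53 encoded cytosolic ribosomal proteins and 9 belonged to the mitochondrial genome. Genes known only by a CG number were 7390 of the listed genes and held 31.5% ± 2.31 of TPM.

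Mitochondrial transcripts led the list. mt:CoIII, a subunit of cytochrome c oxidase, was the highest gene of every pool, at 24067, 21471, 23953 and 30433 TPM in replicates 1, 2, 3 and 4. Its partner mt:CoI stood at 17126, 15584, 16700.3 and 21673 TPM in replicates 1, 2, 3 and 4, second in each pool. The 13 protein genes of the mitochondrial genome together held 8.84% ± 1.32 (SD) of TPM, and 8.2% ± 0.363 without replicate 4. Replicate 4 was the highest pool for 10 of the 13, where 17.8% of all genes were highest in it. The listed values of the 13 genes were far apart. How reads of short or overlapping mitochondrial genes were assigned is not given, so the low values are not read as transcript levels. mt:ATPase6 had 8074 ± 1238 TPM, mt:ND1 had 4859 ± 889 TPM, mt:ND4 had 4153 ± 593 TPM and mt:ND3 had 2759.5 ± 381 TPM. Low values were listed for 4 genes: mt:ND2 had 89.5 ± 18.5 TPM, mt:ND4L had 28.3 ± 14.7 TPM, mt:ND6 had 8.74 ± 2.63 TPM and mt:ATPase8 had 5.16, 8.04, 1.18 and 5.81 TPM in replicates 1, 2, 3 and 4.

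Ribosomal protein genes were the largest group. All 93 listed members were above 0 in every pool, 83 had a mean of at least 100 TPM, and together they held 16.9% ± 1.31 of TPM (17.5% ± 0.673 without replicate 4). Their median member stood at 1687 TPM, where the median of all genes was 16.9 ± 1.21 TPM. RpL41, the smallest ribosomal protein, led them with 12688 ± 597 TPM, followed by RpL39 with 8965 ± 1038 TPM. They were also among the steadiest genes: none of the 93 was variable, against 4.28% of all genes. The 2 members with the widest range were RpS28a, with 5.83, 14.1, 8.74 and 17.7 TPM in replicates 1, 2, 3 and 4, and RpS28-like, with 18.9, 37.7, 24.4 and 43.0 TPM in replicates 1, 2, 3 and 4, both low copies that were lowest in replicate 1. The elongation factor Ef1alpha48D, which brings aminoacyl-tRNA to the ribosome, had 3674 ± 424 TPM, and the elongation factor EF2 had 1505 ± 147 TPM. In replicate 4, 85 of the 93 ribosomal genes and all 10 translation factors were at their lowest, beside 53.3% of all genes. This order turned with the scaling of the pools: after median-of-ratios rescaling 12 of the 93 and 4 of the 10 were lowest there, and 68 of the 93 were lowest in replicate 2.

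Outside these groups the most abundant genes were of several kinds. The gene known as CG13023 was the 8th of all genes by mean and the highest of those with only a CG number, with 6457, 7705, 6745 and 5958 TPM in replicates 1, 2, 3 and 4. The odorant-binding protein gene Obp56a had 3892 ± 379 TPM and the tubulin gene alphaTub84B had 3867 ± 357 TPM. bnb, a gene known as bangles and beads, had 5392, 5044, 2568 and 3375 TPM in replicates 1, 2, 3 and 4, high in replicates 1 and 2 and lower in replicates 3 and 4. Among the 25 highest genes, 23 stayed in the top 25 when replicate 4 was left out. CG7214 did not: it had 9242 TPM in replicate 4, against 851, 1789 and 1958 TPM in replicates 1, 2 and 3, which made its mean 3460.2 ± 3886 TPM, and 1533 ± 597 TPM without replicate 4. CG34461 likewise was highest in that pool, with 6341 TPM in replicate 4, against 2909, 4674 and 4326 TPM in replicates 1, 2 and 3.

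**Figure D2:**
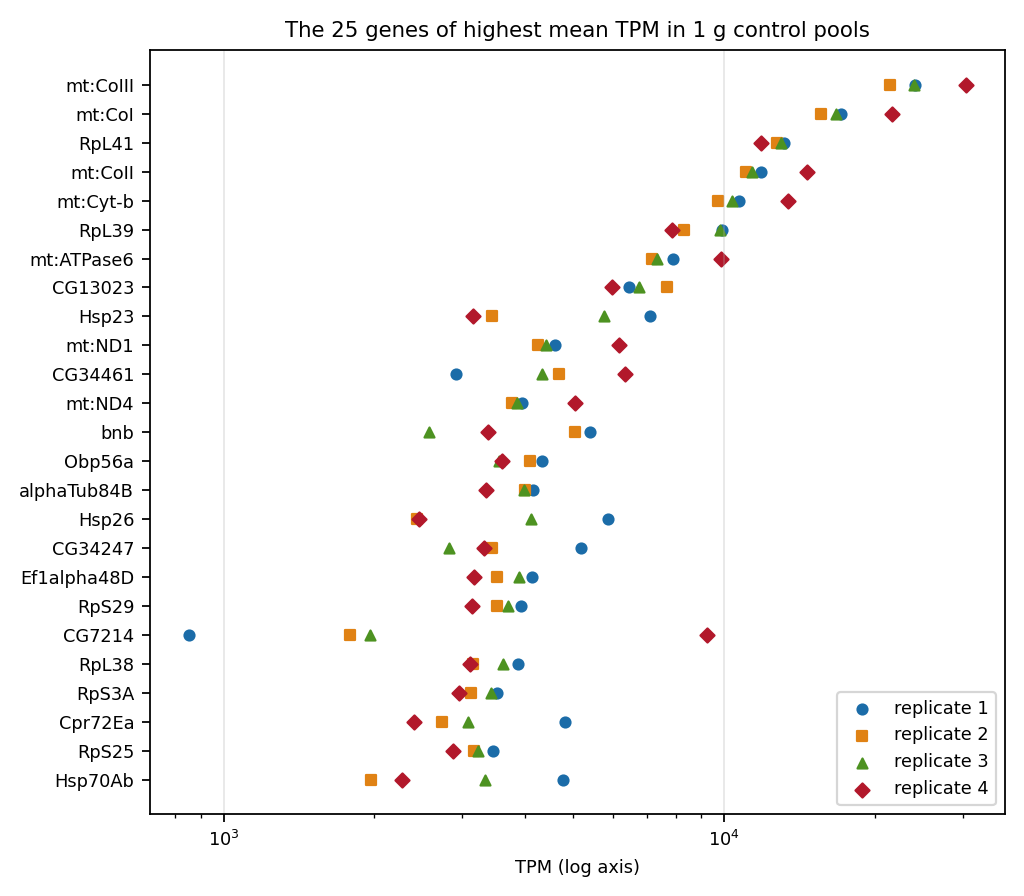
The 25 genes of highest mean level in control pupae. The horizontal axis gives TPM on a log scale and each point is 1 pool, coloured by replicate. Most mitochondrial and ribosomal genes held a narrow range, while CG7214 spread between 851 TPM in replicate 1 and 9242 TPM in replicate 4.

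Gene lists of known tissues and processes were used to describe which parts of the animal the RNA came from. The 51 lists held 1588 genes and 43.5% of all TPM. Counts below of members reaching a mean of 1 TPM stand beside 11913 of all 13918 genes. Counts of members detected stand beside 12878 genes above 0 in all 4 pools. After ribosomal and mitochondrial genes, chaperones held 3.13% ± 1.16 of TPM, cuticle proteins 1.97% ± 0.996, the non-muscle cytoskeleton 1.5% ± 0.173 and muscle genes 1.29% ± 0.832. Without replicate 4 these shares were 3.42% ± 1.22, 1.47% ± 0.163, 1.57% ± 0.13 and 0.884% ± 0.19. Testis genes held 1.27% ± 0.403, odorant-binding proteins 1.03% ± 0.121 and the nuclear genes of the respiratory chain 0.996% ± 0.225. Neuronal, glial, hemocyte and disc genes were detected at far smaller shares, of 0.081% ± 0.005, 0.0595% ± 0.0038, 0.0421% ± 0.0056 and 0.0699% ± 0.0147. The lists differ in how many genes they hold, so the order of shares is not an order of tissue sizes.

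**Figure D3:**
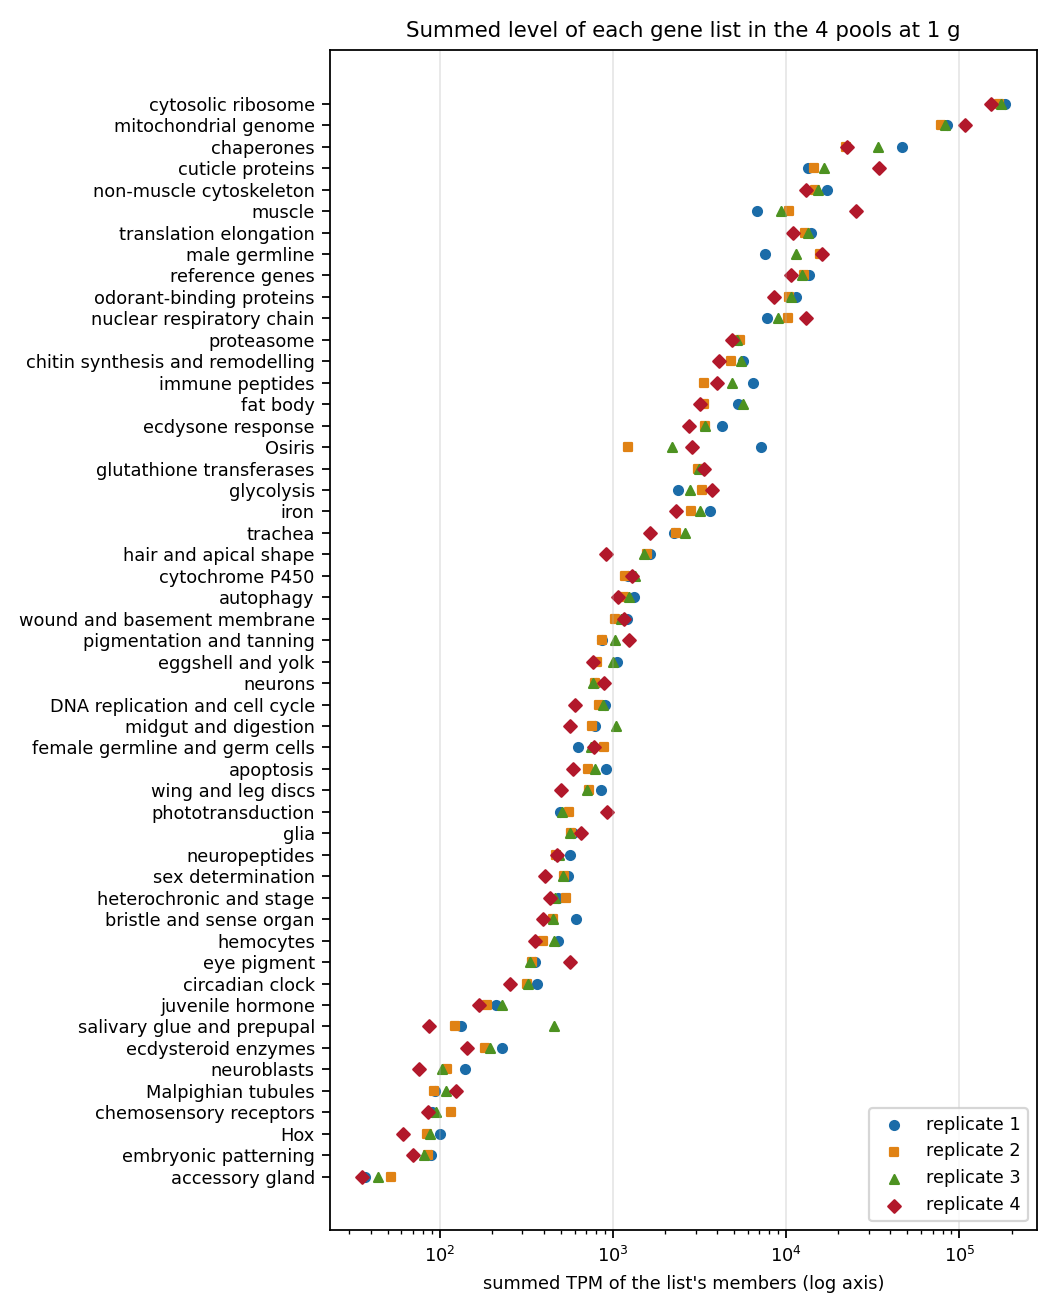
Summed level of each gene list in the 4 pools. The horizontal axis gives the sum of TPM over the members of a list on a log scale, and each point is 1 pool. Ribosomal genes held the most and accessory gland genes the least. The pools lay far apart for Osiris, muscle, and salivary glue and prepupal genes.

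Cuticle protein genes were abundant and the most uneven of the large groups. Of 123 listed members, 89 had a mean of at least 1 TPM, 28 of at least 100 TPM, and 3 were listed at 0 in every pool. The steadier part was led by Cpr72Ea, a chitin-binding protein of the Rebers and Riddiford family, with 4811, 2736, 3076 and 2400.3 TPM in replicates 1, 2, 3 and 4, and by the Tweedle protein gene TwdlT, with 1586, 2712, 2048 and 1620.0 TPM in replicates 1, 2, 3 and 4. Many others differed strongly between pools: 52 of the 89 were variable, where 4.28% of all genes were, and 21 of 79 without replicate 4, where 1.44% were. Those at least 2-fold above the other pools in replicate 4 numbered 27 of 89, against 2.28% of all genes.

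Several cuticle genes were abundant in replicate 4 and low elsewhere. Acp65Aa, an adult cuticle protein, had 3669 TPM in replicate 4, against 49.5, 83.2 and 207 TPM in replicates 1, 2 and 3. Cpr30F had 3482 TPM in replicate 4, against 116, 85.5 and 381 TPM in replicates 1, 2 and 3 and Cpr64Aa had 3325 TPM in replicate 4, against 156, 334 and 590.3 TPM in replicates 1, 2 and 3. In each of them replicate 3 was the next highest pool. Cpr49Ab showed the widest gap, with 389 TPM in replicate 4, against 1.13, 0.92 and 0.49 TPM in replicates 1, 2 and 3, so that its mean without replicate 4 was 0.847 ± 0.326 TPM. Cpr76Bb had 603 TPM in replicate 4, against 0.78, 1.02 and 17.1 TPM in replicates 1, 2 and 3, and there too replicate 3 came next. A smaller set ran the other way, at their lowest in replicate 4. Cpr66Cb had 39.0 TPM in replicate 4, against 1099.5, 1565 and 1123 TPM in replicates 1, 2 and 3, Cpr66D had 169 TPM in replicate 4, against 785, 987 and 883 TPM in replicates 1, 2 and 3 and Cpr50Ca had 2.87 TPM in replicate 4, against 91.9, 62.5 and 214 TPM in replicates 1, 2 and 3. In all, 8 of the 89 cuticle genes were at least 2-fold below the other pools in replicate 4, against 1.74% of all genes. Replicate 3 had a set of its own, with 11 of the 89 at least 2-fold above the other pools, against 0.638% of all genes, among them Cpr100A with 1178 TPM in replicate 3, against 275, 299 and 481 TPM in replicates 1, 2 and 4. Near-identical neighbours of the Ccp84A group summed to 54.1 TPM in replicate 3, against 8.02, 6.39 and 10.5 TPM in replicates 1, 2 and 4, and since such copies may share reads only their sum is given.

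The Osiris genes, a family of insect membrane proteins made in cuticle-forming epidermis, gave the widest differences of any list. Of 24 members 21 had a mean of at least 1 TPM, and 17 of these were variable, against 4.28% of all genes. They fell into opposite sets. One set was high in replicate 1, lower in replicates 2 and 3 and lowest in replicate 4. Osi7 had 2145 TPM in replicate 1, against 298, 558 and 70.9 TPM in replicates 2, 3 and 4, Osi12 had 1958 TPM in replicate 1, against 189, 393 and 10.4 TPM in replicates 2, 3 and 4, and Osi3 had 1282 TPM in replicate 1, against 174, 559 and 2.43 TPM in replicates 2, 3 and 4. Osi4 reached 0.22 TPM in replicate 4, with 267 TPM in replicate 1, against 2.16, 33.1 and 0.22 TPM in replicates 2, 3 and 4, a range of 8.54 on the log2 scale. The other set was found in replicate 4 and hardly elsewhere. Osi19 had 766 TPM in replicate 4, against 0.49, 0.4 and 1.11 TPM in replicates 1, 2 and 3, the widest range of all genes of mean at least 5 TPM at 9.73 on the log2 scale. Osi20 had 749 TPM in replicate 4, against 0.63, 0.5 and 2.26 TPM in replicates 1, 2 and 3, Osi18 had 383 TPM in replicate 4, against 0.22, 0.38 and 0.34 TPM in replicates 1, 2 and 3 and Osi15 had 510.4 TPM in replicate 4, against 1.25, 3.60 and 8.32 TPM in replicates 1, 2 and 3. Their means without replicate 4 were 0.667 ± 0.387 TPM for Osi19, 1.13 ± 0.981 TPM for Osi20, 0.313 ± 0.0833 TPM for Osi18 and 4.39 ± 3.60 TPM for Osi15. Between these sets stood Osi9, with 503, 116, 239 and 307 TPM in replicates 1, 2, 3 and 4, and Osi17 had the smallest range of the tested members, with 16.2, 10.04, 11 and 9.64 TPM in replicates 1, 2, 3 and 4. Without replicate 4, 9 of 19 tested members were variable, against 1.44% of all genes. The summed level of the family was 7152 TPM in replicate 1, against 1228, 2188 and 2853 TPM in replicates 2, 3 and 4.

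Genes that shape hairs and the apical surface of epidermal cells were lowest in replicate 4. Of 19 such genes 18 had their lowest value there, beside 53.3% of all genes, and 4 were at least 2-fold below all other pools, beside 1.74%. The dusky gene dy and its relative dyl, zona pellucida proteins that hold the membrane to the apical matrix, had 3.46 TPM in replicate 4, against 44.9, 28.0 and 37.4 TPM in replicates 1, 2 and 3 for dy, and 6.77 TPM in replicate 4, against 137, 37.8 and 71.6 TPM in replicates 1, 2 and 3 for dyl. m (miniature), of the same family, had 8.09 TPM in replicate 4, against 60.8, 45.2 and 57.7 TPM in replicates 1, 2 and 3, and f (forked), an actin bundling protein of bristles, had 11.5 TPM in replicate 4, against 91.3, 41.0 and 55.9 TPM in replicates 1, 2 and 3. The fascin gene sn (singed) moved less, with 125 TPM in replicate 4, against 279, 205 and 212 TPM in replicates 1, 2 and 3. The most abundant of the list, tyn (trynity), had 249, 296, 271 and 184 TPM in replicates 1, 2, 3 and 4. Against these, zye, another zona pellucida gene, was highest in replicate 4, with 49.1 TPM in replicate 4, against 8.22, 10.8 and 13.8 TPM in replicates 1, 2 and 3. The summed level of the list was 911 TPM in replicate 4, against 1630.1, 1578 and 1514 TPM in replicates 1, 2 and 3. Genes that pattern wing and leg epidermis were measured at moderate levels. hth, ci and sd, transcription factors of disc patterning, had 88.3 ± 19.5 TPM, 79.1 ± 17.5 TPM and 72.3 ± 13.6 TPM. Of the 30 disc genes, 29 were lowest in replicate 4, beside 53.3% of all genes.

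Chitin enzymes and binding proteins were well expressed, and 1 of 38 tested members was variable, near the 4.28% of all genes. Cht5, a chitinase of the moult, had 1456 TPM in replicate 1, against 841, 841 and 901 TPM in replicates 2, 3 and 4, and the chitin-binding proteins Gasp and obst-A had 760.4, 774, 880.4 and 672 TPM in replicates 1, 2, 3 and 4 for Gasp, and 298, 365, 466 and 158 TPM in replicates 1, 2, 3 and 4 for obst-A. ChLD3, a putative chitin deacetylase, had the widest range of the list, with 10.2 TPM in replicate 4, against 55.0, 36 and 34.5 TPM in replicates 1, 2 and 3.

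Genes of melanin and of cuticle tanning held steady members and members that were high in replicate 4. laccase2, the oxidase that hardens cuticle, had 164, 158, 158 and 181 TPM in replicates 1, 2, 3 and 4, and these values differed little. Dopa decarboxylase, Ddc, which makes dopamine for tanning, had 85.9 TPM in replicate 4, against 10.5, 7.89 and 8.28 TPM in replicates 1, 2 and 3. Tyrosine hydroxylase, ple, the step before it, had 24.7 TPM in replicate 4, against 5.5, 3.02 and 4.64 TPM in replicates 1, 2 and 3, and e (ebony), which joins dopamine to beta-alanine, had 67.0 TPM in replicate 4, against 6.92, 21.6 and 16.9 TPM in replicates 1, 2 and 3. The oxidase gene MCO3 had 56.2 TPM in replicate 4, against 0.57, 0.54 and 0.82 TPM in replicates 1, 2 and 3. In this list 6 of 21 tested members were at least 2-fold above the other pools in replicate 4, against 2.28% of all genes. y (yellow), which is needed for black melanin, was instead highest in replicate 3, with 181 TPM in replicate 3, against 46.6, 53.5 and 71.5 TPM in replicates 1, 2 and 4.

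Muscle genes moved together. All 33 listed members were detected, 31 were highest in replicate 4, beside 17.8% of all genes, and 27 were lowest in replicate 1, beside 33.5%. Of the 33, 23 were at least 2-fold above every other pool in replicate 4, beside 2.28% of all genes. The myosin light chain genes Mlc2 and Mlc1 had 3095 TPM in replicate 4, against 809, 1443 and 1222 TPM in replicates 1, 2 and 3 for Mlc2, and 2396 TPM in replicate 4, against 595, 903 and 799.8 TPM in replicates 1, 2 and 3 for Mlc1. Flight muscle actin, Act88F, had 2153 TPM in replicate 4, against 510.1, 1415 and 1149 TPM in replicates 1, 2 and 3, and Act57B, an actin of larval and other adult muscles, had 2439 TPM in replicate 4, against 595, 569 and 563 TPM in replicates 1, 2 and 3. For Act57B the other 3 pools were close together, while for Act88F replicate 1 was below the rest. Flightin, fln, which binds thick filaments in flight muscle, had 1001 TPM in replicate 4, against 148, 347 and 279 TPM in replicates 1, 2 and 3. The widest range was that of Mf (myofilin), with 459 TPM in replicate 4, against 34.2, 49.5 and 57.4 TPM in replicates 1, 2 and 3. The muscle transcription factor Mef2 was instead lowest in replicate 4, with 55.8 TPM in replicate 4, against 83.8, 74.3 and 73.2 TPM in replicates 1, 2 and 3. Summed over the list the level was 25190.3 TPM in replicate 4, against 6741, 10442 and 9349 TPM in replicates 1, 2 and 3.

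Energy metabolism moved the same way with a smaller size. All 24 nuclear genes of the respiratory chain were highest in replicate 4, beside 17.8% of all genes, and lowest in replicate 1, beside 33.5%. ATPsyn-beta, a subunit of ATP synthase, had 1872 TPM in replicate 4, against 1050.0, 1423 and 1283 TPM in replicates 1, 2 and 3, and Cyt-c-p, cytochrome c, had 646 TPM in replicate 4, against 107, 148 and 154 TPM in replicates 1, 2 and 3, the widest of the list. Among glycolytic genes, 9 of 13 were highest in replicate 4 and 11 were lowest in replicate 1, beside the same shares of all genes. Pfk (phosphofructokinase) had 103 TPM in replicate 4, against 46.3, 77.0 and 61.2 TPM in replicates 1, 2 and 3.

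**Figure D4:**
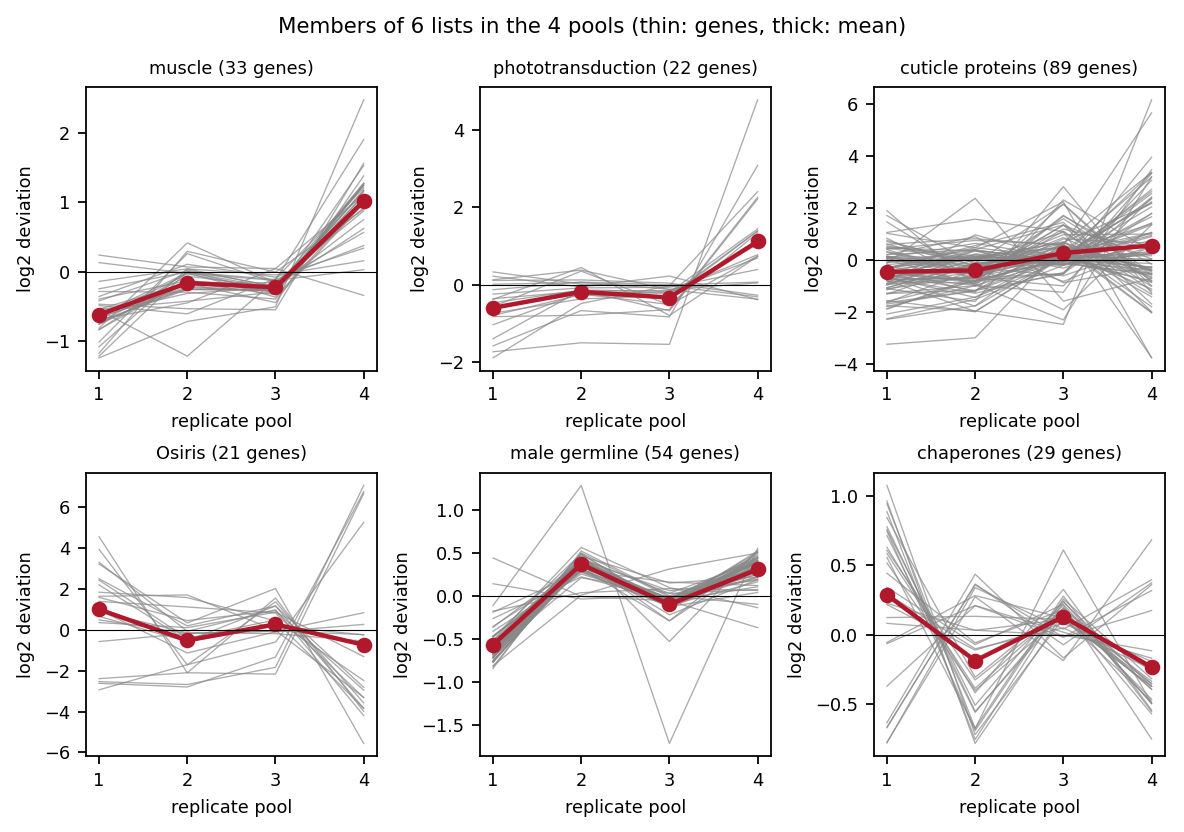
Members of 6 gene lists in the 4 pools. Each thin line is 1 gene and gives its deviation in log2(TPM + 0.5) from its own mean over the pools, the thick line is the mean of the members, and the horizontal axis is the replicate number, which has no order. Most muscle and phototransduction genes stood above 0 in replicate 4, most testis genes below 0 in replicate 1, and Osiris genes split into opposite sets.

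Genes of the eye were present at low levels, and those of the finished photoreceptor were found mostly in replicate 4. ninaE, the main opsin of the outer photoreceptors, had 56.7 TPM in replicate 4, against 0.13, 0.24 and 0.22 TPM in replicates 1, 2 and 3. The ultraviolet opsins Rh3 and Rh4 had 12.1 TPM in replicate 4, against 0, 0.44 and 0.34 TPM in replicates 1, 2 and 3 for Rh3, and 16.3 TPM in replicate 4, against 0.88, 2.78 and 1.78 TPM in replicates 1, 2 and 3 for Rh4. The 7 opsin genes together summed to 95 TPM in replicate 4, against 5.51, 11 and 6.31 TPM in replicates 1, 2 and 3. Of the 7, 6 were highest in replicate 4, beside 17.8% of all genes. Their signalling partners were detected in every pool, and several were again highest in replicate 4. The channel gene trp had 81.2 TPM in replicate 4, against 17.5, 25.6 and 24.2 TPM in replicates 1, 2 and 3, the adhesion gene chp (chaoptin) had 100.2 TPM in replicate 4, against 31.2, 42.3 and 41.4 TPM in replicates 1, 2 and 3, and the photoreceptor G protein subunit Gbeta76C had 56.8 TPM in replicate 4, against 6.28, 6.45 and 7.20 TPM in replicates 1, 2 and 3. Other members were not high there: Galphaq had 59.7, 60.3, 56.9 and 45.7 TPM in replicates 1, 2, 3 and 4 and norpA, the phospholipase C of the cascade, had 18.0, 14.4, 13.8 and 11.3 TPM in replicates 1, 2, 3 and 4. Of 22 tested members of the list, 11 were at least 2-fold above the other pools in replicate 4, beside 2.28% of all genes, and 8 were variable, beside 4.28%.

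Of 16 eye pigment genes 11 were lowest in replicate 4, beside 53.3% of all genes, and 5 were highest there, beside 17.8%. Of the 16, 2 (12.5%) were variable, beside 4.28% of all genes, and both were high in replicate 4. Pu, GTP cyclohydrolase, the first enzyme of pteridine synthesis, had 219 TPM in replicate 4, against 15.1, 21.8 and 23.8 TPM in replicates 1, 2 and 3. se (sepia), which makes a precursor of the red eye pigments, had 51.4 TPM in replicate 4, against 0.92, 0.65 and 0.65 TPM in replicates 1, 2 and 3. The genes lt (light) and or (orange), which carry pigment granule cargo, had 42.8 ± 5.10 TPM and 40.3 ± 2.34 TPM.

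The nervous system was measured at modest levels, and the sum of its neuronal genes was even between pools. All 25 neuronal genes were detected, with a median member at 23.1 TPM, and their summed level was 802, 791, 766 and 882 TPM in replicates 1, 2, 3 and 4. nrv3, a sodium pump subunit of neurons, had 101, 104, 99.3 and 154 TPM in replicates 1, 2, 3 and 4, and the synaptic genes Csp and cpx had 91.2 ± 8.47 TPM and 72.4 ± 21.5 TPM. Gad1, which makes the transmitter GABA, had 22.6 TPM in replicate 4, against 7.45, 9.28 and 8.26 TPM in replicates 1, 2 and 3. The sum moved 1.15-fold between its lowest and highest pool. Even so, 2 of the 25 members were at least 2-fold above the other pools in replicate 4, beside 2.28% of all genes. They were Gad1 and ple, given above with the tanning genes, and ple was the 1 variable gene of the list. Glial genes were led by nrv2, with 163 ± 19.3 TPM, and alrm, a gene of astrocyte-like glia, had 70.5 TPM in replicate 4, against 19.1, 23 and 26.1 TPM in replicates 1, 2 and 3. Neural stem cell genes differed in level. Of 9 listed, 2 had a mean of at least 10 TPM and 3 were under 1 TPM, and the top member held 54.3% of the sum. Among the lower members, dpn had 4.75 ± 0.755 TPM, and insc had 15.6 TPM in replicate 1, against 4.60, 6.69 and 5.98 TPM in replicates 2, 3 and 4.

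Of 36 neuropeptide genes, 34 had a mean of at least 1 TPM, beside 11913 of all 13918 genes. Nplp4 led with 125 ± 42.1 TPM, followed by Ilp6, an insulin-like peptide made in fat body, with 77.7 ± 22.9 TPM. Hormones of the later moulting behaviours were present at low levels, with 10.3 ± 0.758 TPM for ecdysis triggering hormone (ETH), 4.83 ± 0.984 TPM for eclosion hormone (Eh) and 5.45 ± 2.03 TPM for CCAP. The bursicon subunit genes Burs and Pburs had 4.30 ± 1.27 TPM and 6.48 ± 1.79 TPM.

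Odorant-binding proteins were abundant through a few genes, whereas odorant receptors were not. Of 55 listed binding protein genes 23 reached a mean of 1 TPM and 4 were listed at 0 in every pool. Obp56a, Obp44a, Obp99c and Obp99b held most of the sum, with 2343 ± 184 TPM for Obp44a, 1764 ± 372 TPM for Obp99c and 1888, 1083, 2334 and 912 TPM in replicates 1, 2, 3 and 4 for Obp99b. Obp73a was the member with the widest range, with 67.9 TPM in replicate 1, against 4.38, 9.31 and 0.15 TPM in replicates 2, 3 and 4. Of 180 odorant, gustatory and ionotropic receptor genes 25 reached a mean of 1 TPM and 15 were listed at 0 in every pool. The highest were the gustatory receptor genes Gr64a, with 9.31, 9.69, 9.50 and 6.05 TPM in replicates 1, 2, 3 and 4, and Gr93d, with 3.78, 7.58, 5.42 and 7.99 TPM in replicates 1, 2, 3 and 4.

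Fat body genes were well expressed. Lsp2, a larval serum protein kept as an amino acid store, had 2217, 1383, 3073 and 1369.5 TPM in replicates 1, 2, 3 and 4, highest in replicate 3. The lipoprotein gene Rfabg had 743, 506, 667 and 359 TPM in replicates 1, 2, 3 and 4, and Lsd-2, a lipid droplet protein, had 357, 250.3, 311 and 218 TPM in replicates 1, 2, 3 and 4. These values were lowest in replicate 4, as were 9 of the 17 fat body genes in all, near the 53.3% of all genes. Fbp2 had 508 TPM in replicate 1, against 161, 235 and 209 TPM in replicates 2, 3 and 4 and Lsp1beta had 119 TPM in replicate 1, against 38.9, 34.6 and 29.3 TPM in replicates 2, 3 and 4, both highest in replicate 1. Adh, alcohol dehydrogenase, was the member highest in replicate 4, with 238 TPM in replicate 4, against 97.1, 108 and 109 TPM in replicates 1, 2 and 3. Of the 17 fat body genes 4 were at least 2-fold above the other pools in replicate 1, beside 0.621% of all genes. Iron carriers were abundant, with 859.9 ± 114 TPM for the ferritin subunit Fer1HCH and 967 ± 271 TPM for Tsf1 (transferrin).

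Blood cell, gut and renal genes were detected at lower levels. Hemocyte genes were led by crq, a receptor for dying cells, with 97.7 ± 16.0 TPM, and by Pxn (peroxidasin), with 75 ± 9.31 TPM. eater, a phagocytosis receptor, had 14.9 TPM in replicate 4, against 2.75, 1.57 and 2.00 TPM in replicates 1, 2 and 3. Genes of digestion were mostly low: of 59 listed, 20 reached a mean of 1 TPM. The lysozyme gene LysX was the highest of them, with 367, 329, 566 and 136 TPM in replicates 1, 2, 3 and 4, and Mal-A5, a maltase, had 102 ± 20.4 TPM. Lysozyme genes are close copies and their sum was 168 TPM in replicate 4, against 457, 414 and 677 TPM in replicates 1, 2 and 3. The Malpighian tubule genes were led by ZnT35C with 42.1 ± 6.35 TPM, and the water channel gene Drip had 43.2 TPM in replicate 4, against 16.1, 16.6 and 18.6 TPM in replicates 1, 2 and 3.

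Genes of the ecdysone response were expressed in every pool, and most of them were lowest in replicate 4. Of 31 listed genes 30 were tested, 24 were lowest in replicate 4, beside 53.3% of all genes, and 16 were highest in replicate 1, beside 32.3%. The receptor subunit gene EcR had 79.9, 47.6, 49.2 and 40.3 TPM in replicates 1, 2, 3 and 4, and its partner usp had 35.0, 30.8, 30.9 and 20.8 TPM in replicates 1, 2, 3 and 4. The early gene Eip75B had 140.2, 96.8, 90.7 and 55.4 TPM in replicates 1, 2, 3 and 4, and Eip74EF had 76.2, 41.6, 50.2 and 37.3 TPM in replicates 1, 2, 3 and 4; both were highest in replicate 1. Among nuclear receptors, Hr4 had 14.5 TPM in replicate 4, against 64.5, 61.0 and 79.4 TPM in replicates 1, 2 and 3 and Eip78C had 59.5 TPM in replicate 4, against 135, 219 and 226 TPM in replicates 1, 2 and 3, both low in replicate 4. Hr46 had 45.8, 73.9, 51.8 and 51.0 TPM in replicates 1, 2, 3 and 4, without that drop. The exception was ftz-f1, a nuclear receptor that follows the fall of an ecdysone pulse, which was highest in replicate 4, with 27 TPM in replicate 4, against 10.2, 7.79 and 11.7 TPM in replicates 1, 2 and 3. ImpE2, first found as an ecdysone-inducible gene of discs, was the most abundant of the list with 1779 ± 285 TPM, and ImpL1, found in the same way, was variable with 302 TPM in replicate 1, against 75.8, 169.7 and 24.8 TPM in replicates 2, 3 and 4. Blimp-1, a repressor that times pupation, had 39.6 TPM in replicate 2, against 18.6, 19.3 and 9.18 TPM in replicates 1, 3 and 4. Kr-h1, the target of juvenile hormone, was close to 0, with 0.05, 0.29, 0.16 and 0.34 TPM in replicates 1, 2, 3 and 4. The hormone's own enzymes were low: spok and phm, of steroid synthesis, had 11.8 ± 3.35 TPM and 11.4 ± 3.23 TPM, and Cyp18a1, which inactivates ecdysone, had 41.8 TPM in replicate 1, against 7.72, 7.67 and 11.8 TPM in replicates 2, 3 and 4. Among genes of developmental timing, Eip93F, which directs adult development, had 56.6 ± 15.6 TPM, and br (broad), of the pupal programme, had 11.1 ± 3.70 TPM.

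Glue genes of the larval salivary gland had low values or were listed at 0, while some later genes of that gland had higher values. The summed level of the 6 glue protein genes of the Sgs group was 3.94, 0.29, 1.99 and 0.84 TPM in replicates 1, 2, 3 and 4. The new glue genes ng1, ng2, ng3 and ng4 were listed at 0 in every pool, which does not show them to be silent. The Eig71E genes, induced late in that gland by ecdysone, summed to 454 TPM in replicate 3, against 128, 122 and 86.0 TPM in replicates 1, 2 and 4, most of it from Eig71Ej. Eig71Ej had 302 TPM in replicate 3, against 80.3, 93.5 and 61.8 TPM in replicates 1, 2 and 4 and Eig71Ek had 118 TPM in replicate 3, against 13.4, 9.43 and 6.74 TPM in replicates 1, 2 and 4. Other members were not set apart there, such as Eig71Ea with 5.71, 4.88, 5.83 and 1.26 TPM in replicates 1, 2, 3 and 4.

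Cell death and autophagy genes were expressed throughout. Diap1, an inhibitor of caspases, had 288 ± 61.4 TPM, the initiator caspase gene Dronc had 114 ± 33.3 TPM and the death gene rpr (reaper) had 106 TPM in replicate 1, against 57.8, 62.3 and 60.5 TPM in replicates 2, 3 and 4. The autophagy gene Atg8a had 421 ± 44.9 TPM, and ref(2)P, the receptor that feeds proteins to autophagy, had 298 TPM in replicate 1, against 128, 215 and 205 TPM in replicates 2, 3 and 4.

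**Figure D5:**
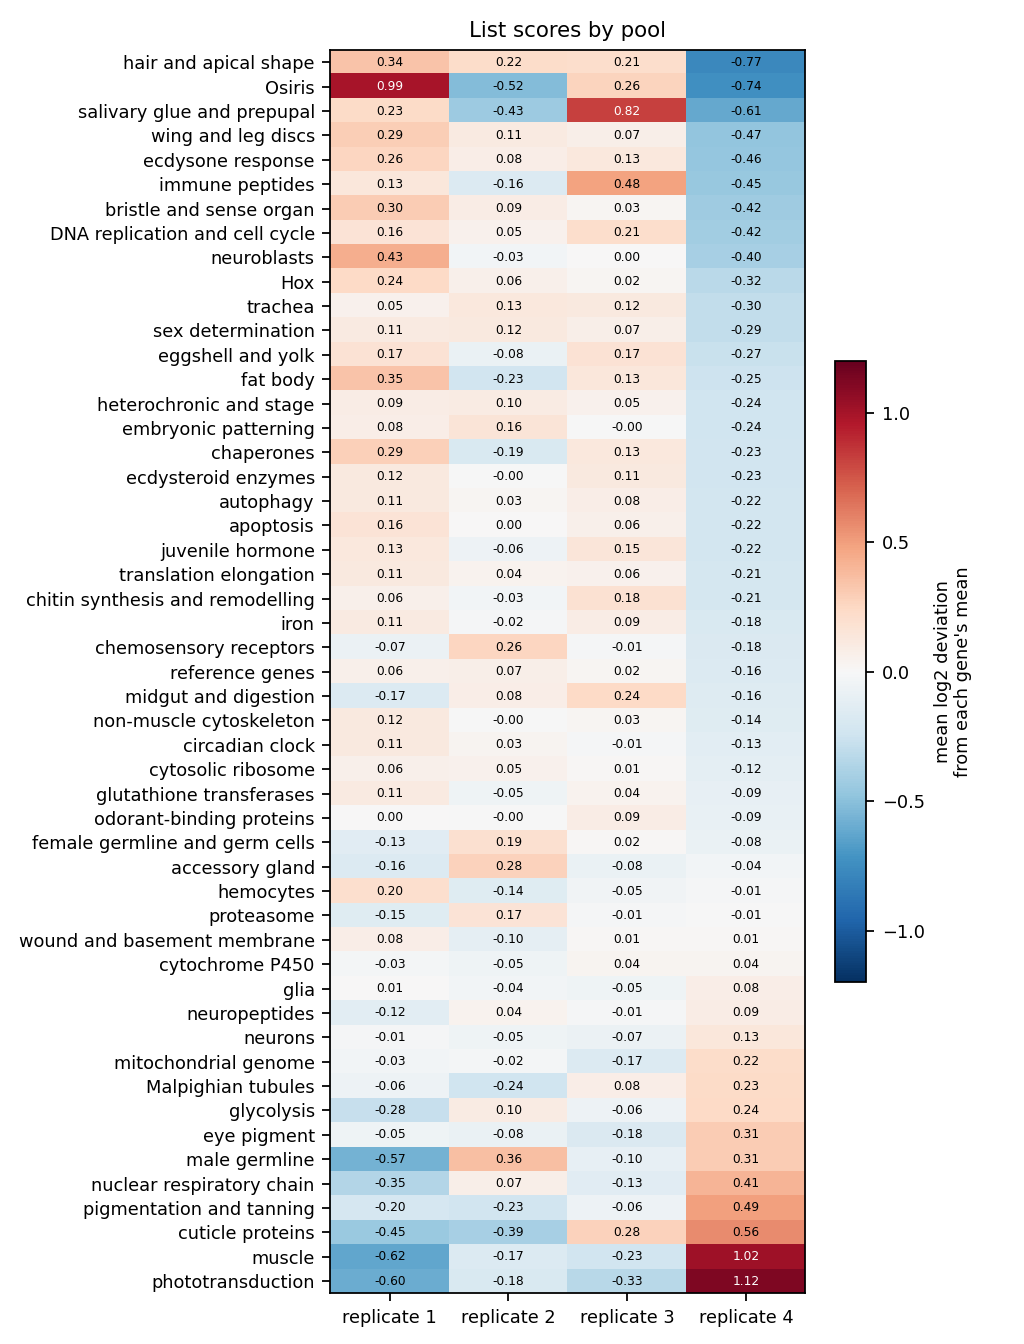
List scores in the 4 pools. Each cell is the mean over a list's members of the deviation in log2(TPM + 0.5) from the gene's mean over the pools, red above and blue below 0, with lists ordered by replicate 4. Phototransduction and muscle scored 1.12 and 1.02 in replicate 4, and hair and apical shape scored -0.77.

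Heat shock genes were among the most abundant of all and were highest in replicate 1. Hsp23, a small heat shock protein that binds unfolding proteins, had 7107 TPM in replicate 1, against 3435, 5757 and 3149.9 TPM in replicates 2, 3 and 4. Hsp26 had 5866 TPM in replicate 1, against 2439, 4107 and 2458 TPM in replicates 2, 3 and 4 and Hsp27 had 4223 TPM in replicate 1, against 2155, 3210.4 and 2145 TPM in replicates 2, 3 and 4. In each of them replicate 3 came second and replicates 2 and 4 were alike. Small heat shock proteins are also made during normal fly development. The stress-inducible Hsp70 genes, too, were highest in replicate 1. The 6 Hsp70 copies, which are nearly identical and may share reads, summed to 14711 TPM in replicate 1, against 5394, 9789.8 and 6616 TPM in replicates 2, 3 and 4. Hsp68, a further inducible member of that family, had 2400.4 TPM in replicate 1, against 691, 1236 and 817 TPM in replicates 2, 3 and 4. The constitutive member Hsc70-4 moved less, with 1290.0 TPM in replicate 1, against 1028, 1174 and 970.4 TPM in replicates 2, 3 and 4. stv (starvin), a co-chaperone of Hsp70, had 431, 70.3, 230.4 and 211 TPM in replicates 1, 2, 3 and 4, lowest in replicate 2. Of the 29 chaperones 19 were highest in replicate 1, beside 32.3% of all genes, and 6 were lowest there, beside 33.5%. The summed level of the list was 46531 TPM in replicate 1, against 22104, 34002 and 22437 TPM in replicates 2, 3 and 4. ref(2)P and Fbp2, given above, were also highest in replicate 1, a rank shared by 32.3% of all genes.

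Testis genes set replicate 1 apart in the other direction. Of 54 tested male germline genes 50 were lowest in replicate 1, beside 33.5% of all genes. Set against replicate 2, 31 of 54 were at least 2-fold lower in replicate 1, beside 1294 (10.9%) of all genes, and their median difference was -1.02 on the log2 scale against -0.07 over all genes. Mst84Dc, a sperm tail protein, had 719.9 TPM in replicate 1, against 1533, 1189 and 1675 TPM in replicates 2, 3 and 4, and S-Lap1, an aminopeptidase of sperm, had 558 TPM in replicate 1, against 1155, 848 and 1169.7 TPM in replicates 2, 3 and 4. The testis tubulin betaTub85D had 279 TPM in replicate 1, against 544, 404 and 539 TPM in replicates 2, 3 and 4 and the protamine gene Mst35Bb had 133 TPM in replicate 1, against 288, 209 and 287 TPM in replicates 2, 3 and 4. In 46 of the 54, replicate 1 was lowest and replicate 3 came next, below replicates 2 and 4. As a share of TPM the list held 0.753% in replicate 1, against 1.56, 1.15 and 1.62% in replicates 2, 3 and 4. dj-1beta, a widely expressed gene outside the sense of the list, differed, with 94.1, 83.2, 85.3 and 79.7 TPM in replicates 1, 2, 3 and 4. Members of the list are transcribed together in spermatocytes and are not independent of each other.

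The same order was found in genes outside that list. The 15 copies of proteasome subunits that carry T or R in their names, several known from the testis, summed to 289 TPM in replicate 1, against 615, 429 and 568 TPM in replicates 2, 3 and 4. All 15 were lowest in replicate 1, beside 33.5% of all genes, and 10 were at least 2-fold below replicate 2, beside 10.9%, while none of the other 32 proteasome genes was. Prosalpha6T, a testis form of a core subunit, had 24.5 TPM in replicate 1, against 56.4, 40.2 and 52.6 TPM in replicates 2, 3 and 4, and its common form Prosalpha6 had 197 TPM in replicate 1, against 178, 184 and 171 TPM in replicates 2, 3 and 4. Hsp60B, a chaperonin needed for sperm formation, had 97.9 TPM in replicate 1, against 201, 148 and 202 TPM in replicates 2, 3 and 4. Of the 1294 genes at least 2-fold lower in replicate 1 than in replicate 2, 1016 were known only by a CG number. Among all 11913 genes tested, 6181 were known only by such a number. In replicate 4 against replicate 1, 1448 genes (12.2%) were at least 2-fold higher and 561 (4.71%) at least 2-fold lower. Of the 54 testis genes 25 were at least 2-fold higher in replicate 4 than in replicate 1 and none was 2-fold lower.

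Genes of sex and the ovary gave a mixed picture. Sxl, the switch gene of female development, had 110.1, 75.2, 83.4 and 65.9 TPM in replicates 1, 2, 3 and 4, and tra, its target, had 39.3, 21.1, 28.2 and 19.2 TPM in replicates 1, 2, 3 and 4, both highest in replicate 1. fru had 17.5 TPM in replicate 1, against 56.4, 47.5 and 38.6 TPM in replicates 2, 3 and 4 and dsx had 22.9, 16.7, 20.8 and 11.4 TPM in replicates 1, 2, 3 and 4. Germ cell genes also active in the testis, exu and orb, had 185, 379, 288 and 368 TPM in replicates 1, 2, 3 and 4 for exu, and 48.2, 105, 72.6 and 105 TPM in replicates 1, 2, 3 and 4 for orb. Eggshell genes were near 0: the 9 chorion genes summed to 4.31, 4.43, 7.22 and 4.10 TPM in replicates 1, 2, 3 and 4 and the 5 vitelline membrane genes of the Vm group to 1.48, 0.83, 1.43 and 1.51 TPM in replicates 1, 2, 3 and 4. Of the yolk protein genes Yp3 had 12.6, 7.59, 13.6 and 6.77 TPM in replicates 1, 2, 3 and 4, while Yp1 and Yp2 had 0.52 ± 0.244 TPM and 0.675 ± 0.242 TPM. Seminal fluid genes were likewise low, with 5 of 48 at a mean of at least 1 TPM and 15 listed at 0 in every pool, and the highest was Acp95EF with 21.2, 32.4, 25.1 and 13.6 TPM in replicates 1, 2, 3 and 4.

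Immune peptide genes were uneven. Of 32 tested members 17 were variable, beside 4.28% of all genes, and 11 of 32 without replicate 4, beside 1.44%. The drosomycin-like genes lie next to each other and went opposite ways. Drsl3 had 4279.9 TPM in replicate 1, against 1041, 528 and 1404 TPM in replicates 2, 3 and 4, while Drsl5 had 215 TPM in replicate 1, against 1144, 2290.1 and 1535 TPM in replicates 2, 3 and 4 and Drsl2 had 113 TPM in replicate 1, against 246, 538 and 409 TPM in replicates 2, 3 and 4. Their sum moved less, at 4616, 2439.6, 3365 and 3350.4 TPM in replicates 1, 2, 3 and 4. Cecropins, which kill bacteria, were highest in replicate 3, with 265 TPM in replicate 3, against 43.2, 48.8 and 15.9 TPM in replicates 1, 2 and 4 for CecC and 118 TPM in replicate 3, against 16.8, 11.9 and 3.91 TPM in replicates 1, 2 and 4 for CecB. The 4 cecropin genes are close copies and summed to 423 TPM in replicate 3, against 81.2, 72.9 and 24.8 TPM in replicates 1, 2 and 4. Def (defensin) had 424 TPM in replicate 1, against 132, 232 and 62.2 TPM in replicates 2, 3 and 4 and AttD (attacin D) had 37.9 TPM in replicate 1, against 12.1, 1.03 and 3.07 TPM in replicates 2, 3 and 4. The Turandot genes, stress-induced secreted peptides, summed to 981 TPM in replicate 1, against 463, 462 and 316 TPM in replicates 2, 3 and 4, and TotB led them with 472 TPM in replicate 1, against 231, 251 and 200.5 TPM in replicates 2, 3 and 4. Mtk (metchnikowin) had 18.5 TPM in replicate 3, against 6.69, 7.11 and 7.41 TPM in replicates 1, 2 and 4 and DptB, a diptericin, was close to 0 with 0.24, 0.58, 0.5 and 0.18 TPM in replicates 1, 2, 3 and 4.

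Some genes with only a CG number had patterns as wide as those of the named families. CG42449 had 0.31 TPM in replicate 4, against 309.7, 485 and 242 TPM in replicates 1, 2 and 3, CG9083 had 0.68 TPM in replicate 4, against 143, 181 and 304 TPM in replicates 1, 2 and 3 and CG12003 had 0.99 TPM in replicate 4, against 149, 193 and 234 TPM in replicates 1, 2 and 3. All 3 were expressed in the other pools and near 0 in replicate 4. CG33946 and CG34196 were the reverse, with 454 TPM in replicate 4, against 1.21, 0.99 and 12.8 TPM in replicates 1, 2 and 3 for CG33946 and 203 TPM in replicate 4, against 0.22, 0.65 and 3.00 TPM in replicates 1, 2 and 3 for CG34196. CG13840 stood out in replicate 1, with 124 TPM in replicate 1, against 1.06, 7.32 and 0.32 TPM in replicates 2, 3 and 4, and CG44013 was missing there, with 0.38 TPM in replicate 1, against 43.3, 153 and 71.6 TPM in replicates 2, 3 and 4. In replicate 2 CG14752 was highest, with 1298 TPM in replicate 2, against 515, 307 and 91.6 TPM in replicates 1, 3 and 4. Among the abundant ones, CG1850 had 3399, 1666, 5470.2 and 552 TPM in replicates 1, 2, 3 and 4 and CG16886 had 1989, 3473, 1308 and 255 TPM in replicates 1, 2, 3 and 4. In all 320 of the 510 variable genes were known only by a CG number and 148 belonged to a list. Beside this, 6181 of all 11913 tested genes were known only by a CG number. A list held 1588 of the 13918 listed genes.

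Among cytochrome P450 genes, Cyp303a1 was nearly absent from replicate 4, with 1.82 TPM in replicate 4, against 83.2, 119.5 and 159.6 TPM in replicates 1, 2 and 3. Cyp4g1, which makes surface hydrocarbons in oenocytes, was the highest P450 gene and was highest in replicate 4, with 507 TPM in replicate 4, against 269, 263 and 306 TPM in replicates 1, 2 and 3. Of 33 glutathione transferase genes 1 was variable, near the 4.28% of all genes, and GstD1 had 928 ± 70.1 TPM. Prat2, an enzyme of purine synthesis, was low in replicate 2, with 2.38 TPM in replicate 2, against 36.9, 23.9 and 17.8 TPM in replicates 1, 3 and 4.

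Variable genes often lay beside each other. Of 507 variable genes that could be placed in RefSeq order, 194 (38.3%) had a variable gene as their direct neighbour among tested genes, against 733 (6.51%) of the other tested genes. There were 9 runs of at least 4 adjacent variable genes. They held the Osiris genes between Osi6 and Osi12, the drosomycin-like genes, the cecropins, the Ccp84A cuticle genes beside Edg84A, the Cpr64A cuticle genes and the Eig71E genes. The other 3 runs held mostly genes with a CG number, 1 of them ending at f. Neighbours in such a run are often copies of each other and are not independent.

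At the other end, a set of genes hardly differed between pools. Vha26, a subunit of the proton pump of acidic organelles, had 243, 239, 241 and 242 TPM in replicates 1, 2, 3 and 4, a range of 0.02 on the log2 scale, where the median gene had 0.60. crc (cryptocephal), a transcription factor of the stress response, had 807, 814, 805 and 842 TPM in replicates 1, 2, 3 and 4, and shi, the fly dynamin, had 77.0, 80.1, 79.3 and 77.7 TPM in replicates 1, 2, 3 and 4. The vesicle coat gene epsilonCOP and the membrane fusion gene atl (atlastin) had 68.4 ± 1.65 TPM and 75.9 ± 1.77 TPM. These were chosen for having the smallest spreads among genes of mean at least 50 TPM. Genes often used as references were less even. RpL32 had 2221, 2129, 2136 and 1887 TPM in replicates 1, 2, 3 and 4 and a range of 0.24, and alphaTub84B had a range of 0.31. Act5C had 3047 TPM in replicate 1, against 2137, 2218 and 1493 TPM in replicates 2, 3 and 4, a range of 1.03, and Gapdh1 had 779 TPM in replicate 4, against 418, 636 and 546 TPM in replicates 1, 2 and 3, a range of 0.90. The spread also depended on level: the median SD of the log2 values was 0.34 for genes between 1 and 5 TPM, 0.25 between 20 and 100 TPM and 0.16 above 1000 TPM.

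The genes listed at 0 completed the description. Of the 253 genes listed at 0 in all 4 pools, 176 were known only by a CG number, beside 7390 of all 13918 genes. The rest of the 253 held 13 genes named Sfp for seminal fluid proteins, 6 ionotropic, 5 gustatory and 4 odorant receptor genes, the 4 new glue genes, 8 of 13 copies of the testis repeat Stellate and 12 of 111 copies of the histone gene cluster. SP, the sex peptide of adult males, was among them. Histones are made in every dividing cell, and the other histone copies include sets of identical values. The libraries were also made from polyadenylated RNA, so transcripts without a poly(A) tail would be missed. A gene listed at 0 here is therefore not shown to be silent. When replicate 4 was left out, 361 genes were listed at 0 in the other 3 pools. Genes of the early embryo were low as a list, with 8 of 22 at a mean of at least 1 TPM, led by h (hairy) with 31.3 ± 7.09 TPM. Homeotic genes were all detected, and abd-A, which gives abdominal segments their identity, was the highest with 33.7, 27.6, 34.4 and 19.9 TPM in replicates 1, 2, 3 and 4.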

How the data were processed

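Polyadenylated RNA of whole P6 pupae was read in 4 pools kept at 1 g, and the 4 columns of the hypergravity arm were not used here. The deposited table gives 1 whole number per gene and pool. It is read here as a score that the authors made by multiplying TPM by 100 and rounding, since each pool sums to 1000000 within rounding after division by 100. The submitters' processing notes name eXpress 1.5.1, Bowtie2 2.1.0, Trimmomatic 0.30, DESeq and CASAVA, with no role or order. Not given in the sources used here were the genome build, the annotation, the use of strand and any scaling beyond TPM. The depth of the libraries is unknown, so no counting interval is given, and library depth was not set beside any difference.

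Gene names, and which genes lie beside each other, were taken from RefSeq (assembly Release 6 plus ISO1 MT): 11946 names were current symbols, 1856 matched a synonym and 116 did not match or were ambiguous. The table holds 136 sets of identical values, with 397 genes, whose reads cannot be told apart. Hsp70, cecropin, lysozyme, Eig71E, Ccp84A and other near-identical or overlapping genes are uncertain for the same reason. The RNAs roX1 and roX2 were not analysed here.

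From TPM, means and SDs over 4 pools were computed, and for genes of mean at least 1 TPM the range and SD of log2(TPM + 0.5). A gene was variable where this range reached 2 (4-fold), and set apart in a pool where it lay at least 1 (2-fold) above or below each other pool. The score of a list in a pool averages its members' log2 deviations from their own means over the pools. With 1 group no test was made. The patterns that define lists also took genes outside their sense, such as the cysteine protease Cp1 in the eggshell list. The members, gene lists and rules were chosen with earlier results of these data known. Genes were named by a rule: the 25 of highest mean, the 20 of widest log2 range at a mean of at least 5 TPM, the 10 of smallest log2 SD at a mean of at least 50 TPM, in each list the 4 of highest mean and the 2 of widest range, the 5 farthest above and below the others in each pool, common reference genes, and the 10 highest genes with a CG number. Not every gene that the rule gave is printed. Of the 211 genes named, 155 came from this rule and 56 were chosen after their values were seen.

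The alternatives were leaving out each pool, median-of-ratios rescaling, quantile normalization, leaving out the mitochondrial genome or the top member of a list, counting identical values once, pseudocounts of 0.1 and 1, no filter or a mean of at least 5 TPM, ranges of 2-fold and 8-fold, a 4-fold distance from the other pools, Spearman correlation, and correlation without mitochondrial, cuticle and muscle genes. The scripts were tested on simulated data. Python 3.11.15, numpy 2.4.6, pandas 2.3.3 and matplotlib 3.10.9 were used.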

Additional observations from a re-analysis of the deposited data

Results flagged for a closer look

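Of 240 results checked, 56 held 1 pool far from the other 3, by Dixon's criterion for 4 values, which sets the gap to the nearest pool against the whole range. Chance alone sets aside about 1 in 20 groups by this rule, and many of the genes had been named because 1 of their pools stood apart, so the number is a description. Replicate 4 was the pool set aside in 41 of the 56, replicate 3 in 8, replicate 1 in 7 and replicate 2 in none. The value was the highest in 53 of them and the lowest in 3. This split carries the scale, since the criterion was set on TPM and not on log2 values. On that scale a pool near 0 is seldom set aside. CG42449, with 0.31 TPM in replicate 4 against 242 to 485 TPM elsewhere, was not. By log2 values, 272 genes (2.28%) were at least 2-fold above the other pools in replicate 4 and 207 (1.74%) below. Of the 211 genes named, 51 met the rule, 37 of them in replicate 4.

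In replicate 4 the genes of cuticle and epidermis came first. Acp65Aa had 3669 TPM in replicate 4, against 49.5 to 207 TPM in the other 3 pools, and Cpr30F had 3482 TPM in replicate 4, against 85.5 to 381 TPM in the other 3 pools. Cpr64Aa had 3325 TPM in replicate 4, against 156 to 590.3 TPM in the other 3 pools, and Cpr49Ab had 389 TPM in replicate 4, against 0.49 to 1.13 TPM in the other 3 pools. Cpr76Bb had 603 TPM in replicate 4, against 0.78 to 17.1 TPM in the other 3 pools, and zye had 49.1 TPM in replicate 4, against 8.22 to 13.8 TPM in the other 3 pools. The Osiris genes of that pool went the same way. Osi19 had 766 TPM in replicate 4, against 0.4 to 1.11 TPM in the other 3 pools, and Osi20 had 749 TPM in replicate 4, against 0.5 to 2.26 TPM in the other 3 pools. Osi18 had 383 TPM in replicate 4, against 0.22 to 0.38 TPM in the other 3 pools, and Osi15 had 510.4 TPM in replicate 4, against 1.25 to 8.32 TPM in the other 3 pools. Tanning genes were set aside there too. Ddc had 85.9 TPM in replicate 4, against 7.89 to 10.5 TPM in the other 3 pools, and ple had 24.7 TPM in replicate 4, against 3.02 to 5.5 TPM in the other 3 pools. MCO3 had 56.2 TPM in replicate 4, against 0.54 to 0.82 TPM in the other 3 pools. As a share of TPM, cuticle proteins held 3.45% in replicate 4, against 1.33 to 1.65% in the other 3 pools, and hair and apical shape genes, low in that pool, held 0.0911% in replicate 4, against 0.151 to 0.163% in the other 3 pools.

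Muscle and mitochondrial genes followed in replicate 4. Act57B had 2439 TPM in replicate 4, against 563 to 595 TPM in the other 3 pools, and Mf had 459 TPM in replicate 4, against 34.2 to 57.4 TPM in the other 3 pools. Cyt-c-p had 646 TPM in replicate 4, against 107 to 154 TPM in the other 3 pools, and mt:ND4 had 5036 TPM in replicate 4, against 3773 to 3943 TPM in the other 3 pools. Genes of the eye came next. ninaE had 56.7 TPM in replicate 4, against 0.13 to 0.24 TPM in the other 3 pools, and Rh3 had 12.1 TPM in replicate 4, against 0 to 0.44 TPM in the other 3 pools. Rh4 had 16.3 TPM in replicate 4, against 0.88 to 2.78 TPM in the other 3 pools, and trp had 81.2 TPM in replicate 4, against 17.5 to 25.6 TPM in the other 3 pools. chp had 100.2 TPM in replicate 4, against 31.2 to 42.3 TPM in the other 3 pools, and Gbeta76C had 56.8 TPM in replicate 4, against 6.28 to 7.20 TPM in the other 3 pools. Pu had 219 TPM in replicate 4, against 15.1 to 23.8 TPM in the other 3 pools, and se had 51.4 TPM in replicate 4, against 0.65 to 0.92 TPM in the other 3 pools. As shares of TPM, phototransduction genes held 0.0918% in replicate 4, against 0.0493 to 0.0556% in the other 3 pools, and eye pigment genes held 0.0561% in replicate 4, against 0.0332 to 0.0353% in the other 3 pools. The eye pigment share does not describe most of its list. Of its 16 genes 11 were lowest in replicate 4, beside 53.3% of all genes. Some genes of neurons and glia were set aside in the same pool, but their lists were divided. Of 25 neuronal genes 11 were highest and 10 lowest in replicate 4. Of 12 tested glial genes 5 were highest and 6 lowest there. Over all genes the shares were 17.8% and 53.3%. nrv3 had 154 TPM in replicate 4, against 99.3 to 104 TPM in the other 3 pools, and cpx had 104 TPM in replicate 4, against 57.3 to 64.2 TPM in the other 3 pools. Gad1 had 22.6 TPM in replicate 4, against 7.45 to 9.28 TPM in the other 3 pools, and alrm had 70.5 TPM in replicate 4, against 19.1 to 26.1 TPM in the other 3 pools. Single genes of other tissues were also set aside. Adh had 238 TPM in replicate 4, against 97.1 to 109 TPM in the other 3 pools, and eater had 14.9 TPM in replicate 4, against 1.57 to 2.75 TPM in the other 3 pools. Drip had 43.2 TPM in replicate 4, against 16.1 to 18.6 TPM in the other 3 pools, and CG7214 had 9242 TPM in replicate 4, against 851 to 1958 TPM in the other 3 pools. CG33946 had 454 TPM in replicate 4, against 0.99 to 12.8 TPM in the other 3 pools, and CG34196 had 203 TPM in replicate 4, against 0.22 to 3.00 TPM in the other 3 pools. On the TPM scale, which seldom sets aside a low pool, few genes were set aside as low. Gr64a had 6.05 TPM in replicate 4, against 9.31 to 9.69 TPM in the other 3 pools, and Pxn had 61.1 TPM in replicate 4, against 78.8 to 80.7 TPM in the other 3 pools.

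Replicate 1 stood apart as high for 7 genes. Osi4 had 267 TPM in replicate 1, against 0.22 to 33.1 TPM in the other 3 pools, and Cht5 had 1456 TPM in replicate 1, against 841 to 901 TPM in the other 3 pools. Obp73a had 67.9 TPM in replicate 1, against 0.15 to 9.31 TPM in the other 3 pools, and Lsp1beta had 119 TPM in replicate 1, against 29.3 to 38.9 TPM in the other 3 pools. Cyp18a1 had 41.8 TPM in replicate 1, against 7.67 to 11.8 TPM in the other 3 pools, and rpr had 106 TPM in replicate 1, against 57.8 to 62.3 TPM in the other 3 pools. CG13840 had 124 TPM in replicate 1, against 0.32 to 7.32 TPM in the other 3 pools. In replicate 3 the high genes were those of immunity, the salivary gland and others. CecC had 265 TPM in replicate 3, against 15.9 to 48.8 TPM in the other 3 pools, and CecB had 118 TPM in replicate 3, against 3.91 to 16.8 TPM in the other 3 pools. Mtk had 18.5 TPM in replicate 3, against 6.69 to 7.41 TPM in the other 3 pools, and Edg84A had 9.46 TPM in replicate 3, against 0.09 to 0.63 TPM in the other 3 pools. Eig71Ej had 302 TPM in replicate 3, against 61.8 to 93.5 TPM in the other 3 pools, and Eig71Ek had 118 TPM in replicate 3, against 6.74 to 13.4 TPM in the other 3 pools. mt:ND4L had 50.2 TPM in replicate 3, against 19.3 to 23.6 TPM in the other 3 pools. It is among the low mitochondrial values that are not read as transcript levels. As a share of TPM, salivary glue and prepupal genes held 0.0456% in replicate 3, against 0.0087 to 0.0132% in the other 3 pools.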

How the results depend on the processing

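No paired analysis was possible because the pools form 1 group and the results come from no test. Over 329 results and 2003 alternative values, 1055 values of named genes and 884 others stayed within 1 SD over the pools, or within 1.5 times for counts. A mean over 4 pools cannot move past 1 SD when 1 pool is left out. For gene means, list shares and the concentration of TPM that outcome was therefore fixed in advance and shows no stability. CG7214 is counted there, with 3460 TPM over 4 pools and 1533 TPM without replicate 4. The other 63 values moved past these limits and 1 changed sign. The cause was not tested except where the alternative itself sets it. Leaving out 1 pool in turn gave 171 to 468 variable genes, the lowest without replicate 4. The mean correlation of replicate 1 with the other pools was 0.923 to 0.964. Genes above the other pools then numbered 83 to 155 in replicate 1, 31 to 38 in replicate 2 and 104 to 150.0 in replicate 3. Genes below them numbered 125 to 883 in replicate 1, 39 to 79 in replicate 2 and 21 to 38 in replicate 3. Fewer pools have to be passed in these counts, and the 883 in replicate 1 came without replicate 3. The phototransduction score of replicate 3 lay between -0.53 and 0.031, and was 0.031 without replicate 4. After median-of-ratios rescaling the scores of replicates 2 and 4 were -0.056 and 0.033 for ribosomal genes, -0.093 and 0.049 for odorant-binding proteins and -0.15 and 0.28 for neuronal genes. Without the mitochondrial genome, 358 genes held 50% of TPM, the top 10 held 6.71% and the top 100 held 28.6%, ribosomal genes held 18.6% and neuronal genes 0.0889%. With a pseudocount of 0.1, genes below the other pools were 161 in replicate 1 and 24 in replicate 3, and with a pseudocount of 1 they were 70 in replicate 1 and 15 in replicate 2. Without a filter the mean correlations of replicates 1 and 4 were 0.965 and 0.953, replicate 2 had 25 genes above the others, and the odorant-binding scores of replicates 3 and 4 were -0.015 and -0.011. At a mean of at least 5 TPM those correlations were 0.919 and 0.888, replicate 2 had 7 genes above and 11 below, replicate 3 had 50 above, the glue score of replicate 3 was 1.55 and the odorant-binding scores of replicates 1 and 4 were 0.15 and -0.27. A range of 2-fold held for 2780 genes and one of 8-fold for 259. At 4-fold apart, the genes above and below were 14 and 8 in replicate 1, 1 and 4 in replicate 2, 21 and 1 in replicate 3, and 111 and 90 in replicate 4. Quantile normalization gave 64 genes below in replicate 1 and 8 above in replicate 2. Without its top member, the share of TPM was 6.34% for the mitochondrial genome, 0.0393% for phototransduction, 0.283% for immune peptides, 0.235% for fat body, 0.167% for ecdysone response, 0.638% for odorant-binding proteins and 0.0695% for neuronal genes. The unknown depth limits what low genes can show.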
